A study of Drosophila melanogaster with 60 samples.

Results

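Control heads of Drosophila melanogaster were compared between the hour before lights-off and the hour before lights-on. The 6 libraries, of 60 in the whole series, were those labelled conRNAi at Zeitgeber time 11 (ZT11, 1 h before lights-off) in 3 courses and at ZT23 (1 h before lights-on) in 3 courses. They were chosen by genotype and time alone. The conRNAi flies carried Tim-gal4, which drives UAS transgenes in cells that express timeless, together with UAS-Dcr2, and served as the control of an RNAi experiment on cabut (cbt). The driver therefore acts in clock neurons, photoreceptors and other timeless cells but not in every cell of the head. Heads were also taken at ZT3, ZT7, ZT15 and ZT19, again in 3 courses each, and these 12 further conRNAi libraries entered the estimate of the spread. Beside them stand 4 libraries of another control, conOE, which carried Tim-gal4 without UAS-Dcr2, and 6 libraries labelled RNAi, which carried Tim-gal4 with a UAS construct for RNAi of cbt. The labels give no age or sex, and do not say that courses came from separate flies, so the p-values below measure the spread between libraries, which may be technical.

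The fly clock is a feedback loop of transcription. CLK and CYC together activate per, tim, vri, Pdp1 and cwo, the products of per and tim then block CLK and CYC, and VRI represses Clk. In heads most clock-bearing cells are photoreceptors, with smaller sets of neurons and glia and the fat body that lines the head capsule. Clock outputs reported in heads include genes of vision, feeding, metabolism and detoxification.

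The libraries were 3′ RNA-seq, in which reads come from near the poly(A) tail of a transcript, and values are given below as normalised read counts, the deposited unit. Over the 7444 genes the ZT11 libraries held 11545419, 4616232 and 5096971 reads in courses 1 to 3, and the ZT23 libraries 7902364, 703913 and 6181625. ZT23 course 2 stood apart. It was the shallowest of the 18 conRNAi libraries, its correlation with the other libraries of its time was 0.957 against 0.974 to 0.990 in the other 17, and 27.0% of its genes rested on fewer than 10 reads. One read in it is worth a value of 4.03. The targeted gene cbt, a zinc finger transcription factor, lay between 338 and 373 at ZT11 and between 298 and 362 at ZT23 in conRNAi. In the libraries labelled RNAi it lay between 302 and 423 at ZT11 and between 210 and 278 at ZT23, so these libraries were not uniformly lower than the control and are called by their label. The photoreceptor markers together stood at 86858 to 98138 at ZT11 and 82077 to 87722 at ZT23, and 6 gut, 5 ovary and 5 testis or accessory gland markers were not listed in the table.

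Of the 7444 genes, 141 passed the test between ZT11 and ZT23, which is 1.89% (limma, adjusted p under 0.05). The 62 genes higher at ZT11 were 0.833% of all genes and the 79 higher at ZT23 were 1.06%. Among the first, 17 differed by at least 2-fold, and among the second 26. The median size of the log2 difference was 0.74 and 0.79, while the median over all genes was 0.00. At an unadjusted p under 0.05 there were 855 genes (11.5%). In 62 of the 62 and 78 of the 79, the 3 libraries of one time lay wholly on one side of the 3 of the other, against 16.9% of all genes in either direction. The test compared these same libraries, so this separation follows largely from the calls. In bulk heads, fewer cells of a type and less RNA per cell cannot be told apart, which holds for each result below. The count of 141 was 84, 79 and 87 without ZT11 course 1, 2 or 3, 88 without ZT23 course 1, 114 without ZT23 course 2 and 110 without ZT23 course 3. It was 78 (33 and 45) in the 6 libraries alone, 91 (39 and 52) over the 36 libraries of both genotypes and 300 (156 and 144) with array weights, a setting chosen after seeing the data. All 6 of these fits without 1 library called 20 of the 62 and 34 of the 79. With a term for course number the count rose and kept all 141, as given further below.

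**Figure D1:**
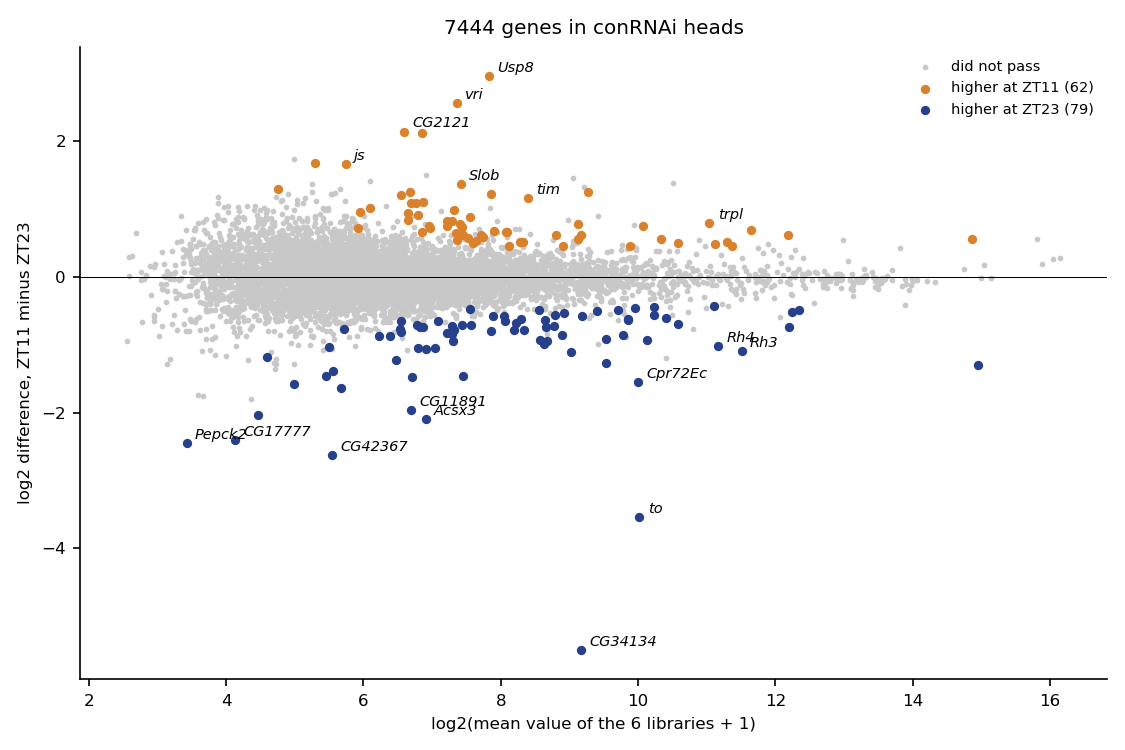
The log2 difference between ZT11 and ZT23 (vertical axis) of 7444 genes is drawn against the mean level of the 6 conRNAi libraries (horizontal axis, log2 of the mean value plus 1), with 62 genes higher at ZT11 in orange and 79 higher at ZT23 in blue. CG34134 and to lie lowest, at -5.51 and -3.54, and Usp8 and vri highest, at 2.97 and 2.56.

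Among 7 measured core clock genes, 3 were higher at ZT11, against 0.833% of all genes, and 4 did not pass. With array weights, where 156 of all genes were higher at ZT11, the 3 became 5, with cwo (adjusted p = 0.0436) and Pdp1 (adjusted p = 0.0030) added. vri, which encodes a bZIP repressor of Clk, stood at 316, 241 and 282 at ZT11 and at 39.6, 56.4 and 44.3 at ZT23. Its groups were far apart, and the ratio of their means was 5.98 (log2 difference 2.56, SE 0.187, adjusted p = 7.72e-09). tim, whose product joins PER in the repressor complex, stood at 480, 434 and 477 at ZT11 and at 240.3, 189 and 194 at ZT23 (log2 difference 1.16, SE 0.145, adjusted p = 3.11e-05). Here too every ZT11 library lay above every ZT23 library, while over the 6 times both ZT11 and ZT23 were intermediate for tim, between a mean of 56.7 at ZT3 and one of 604 at ZT15. cry, the blue-light receptor that resets the clock, stood at 204, 243 and 193 at ZT11 and at 141, 113 and 119 at ZT23. Its difference was 0.77 (SE 0.166, adjusted p = 0.0117) and lost its call without ZT11 course 2 (adjusted p = 0.0967). The exons of cry overlap those of vib on the other strand, which did not pass.

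The other 4 measured clock genes did not pass. cwo, a repressor that acts on CLK targets, stood at 75.4, 76.6 and 89.5 at ZT11 and at 53.3, 52.3 and 49.0 at ZT23, groups that did not overlap, with a difference of 0.63 (SE 0.216, adjusted p = 0.196). Pdp1, the activator counterpart of vri, stood at 262, 300.02 and 299.9 at ZT11 and at 153, 346 and 177 at ZT23. The one high ZT23 value came from ZT23 course 2, and the difference of 0.44 (adjusted p = 0.42) became 0.80 without that library (adjusted p = 0.00979). Clk stood at 28.8, 27.4 and 29.3 at ZT11 and at 46.8, 16.1 and 43.4 at ZT23. The value of 16.1 is again ZT23 course 2 and rests on 4 reads, with an exact 95% Poisson interval of 4.39 to 41.2 that covers counting error only. The difference in Clk was -0.17 (SE 0.3, adjusted p = 0.884), was -0.64 without ZT23 course 2 (adjusted p = 0.297), and turned to 0.10 without ZT23 course 1 and 0.04 without ZT23 course 3. cyc had a difference of -0.21 (adjusted p = 0.836) with overlapping groups, which turned to 0.10 without ZT11 course 2. The list median was 0.63. per is not listed in the table of this experiment and was measured only in conOE, described below.

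**Figure D2:**
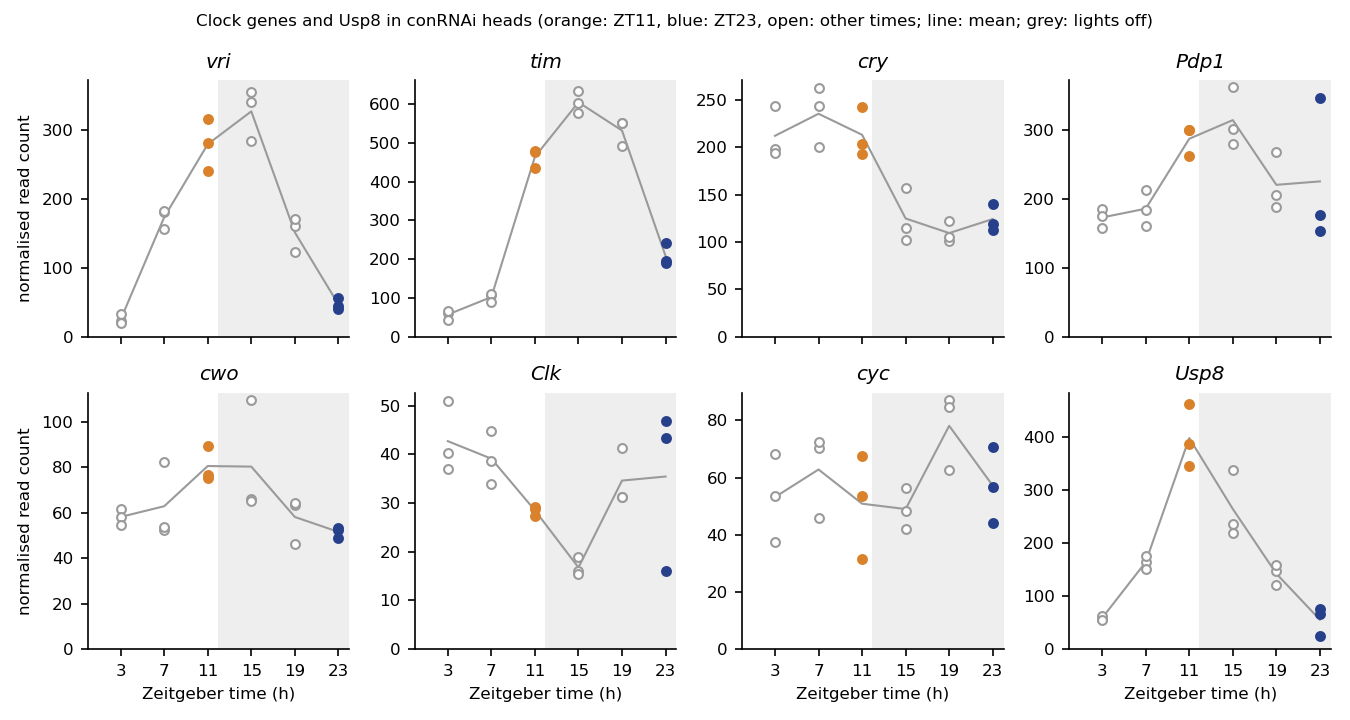
Normalised read counts (vertical axes, from 0) of 7 clock genes and Usp8 are plotted for each of the 18 conRNAi libraries against Zeitgeber time in hours, with lines through the means of 3 libraries. The ZT11 points of vri, tim, cry, cwo and Usp8 lie above their ZT23 points, while those of Pdp1, Clk and cyc overlap with them.

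Usp8, Slob and Cipc, which stand outside the core list, were among the 12 largest increases. These 12, and the 12 largest decreases below, were ranked among the passing genes whose 3 ZT11 and 3 ZT23 libraries did not overlap, so that separate groups were part of the choice. Usp8, a ubiquitin-specific protease, had the largest difference of the 62. It stood at 345, 387 and 462 at ZT11 and at 75.3, 24.15 and 66.9 at ZT23, the value of 24.15 being 6 reads of ZT23 course 2. The ratio of means was 7.19 (log2 difference 2.97, SE 0.268, adjusted p = 2.5e-07), and without ZT23 course 2 and the other libraries in turn the difference stayed between 2.46 and 3.26. Slob, whose protein binds the Slowpoke potassium channel, stood at 273, 237 and 222 against 69.9, 109 and 108 (difference 1.36, SE 0.178, adjusted p = 5e-05). Cipc, the fly relative of a mammalian CLOCK-interacting repressor, stood at 128, 113 and 146.5 against 48.3, 60.4 and 56.6 (difference 1.21, SE 0.225, adjusted p = 0.00304).

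The other 9 of the 12 largest increases were vri and genes with little or no described role in the clock. CG2121 stood at 126, 129.7 and 204 at ZT11 and at 38.5, 16.1 and 57.5 at ZT23 (difference 2.14, adjusted p = 9.98e-05), and CG13856 and js followed with 1.68 (adjusted p = 0.000546) and 1.67 (adjusted p = 0.000892). In these 3 genes the ZT23 course 2 value of 16.1 was 4 reads. PGRP-LB, an amidase that degrades bacterial peptidoglycan, had a difference of 1.30 (adjusted p = 0.0124), CG11425 one of 1.25 (adjusted p = 0.00407) and CG3348 one of 1.23 (adjusted p = 0.00598). CG10814 (2.12, adjusted p = 0.0204) and CG9377 (1.26, adjusted p = 0.0156) completed the set. The call was lost for CG10814 without ZT11 course 2 or 3 or ZT23 course 1 (adjusted p 0.0710 to 0.149), for PGRP-LB without ZT11 course 2 or 3 (0.0687 to 0.0851), for CG9377 without ZT11 course 1 or ZT23 course 2 (0.0827 to 0.121) and for CG3348 without ZT11 course 2 (0.0710). The exons of CG3348 overlap those of Hmu on the other strand, and whether reads were counted by strand is not given in the sources used here.

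The largest differences of the whole comparison were in the other direction. CG34134, for which the tables used here give no name, stood at 37.2, 28.6 and 12.3 at ZT11 and at 1167, 1002 and 1202 at ZT23. Its mean was 43.2 times higher at ZT23 (log2 difference -5.51, SE 0.277, adjusted p = 6.08e-12), and fits without single libraries gave -5.82 to -5.06. takeout (to), which encodes a secreted carrier-like protein linked to feeding, stood at 132, 144 and 226 at ZT11 and at 1657, 2069 and 1996 at ZT23. Its mean was 11.4 times higher at ZT23 (difference -3.54, SE 0.319, adjusted p = 2.5e-07). CG42367 stood at 11.2, 12.6 and 11.7 against 71.7, 92.6 and 72.8 (difference -2.63, SE 0.306, adjusted p = 1.28e-05).

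Acsx3, of the acyl-CoA synthetase family, stood at 55.3, 29.1 and 53.3 at ZT11 and at 191, 193 and 193 at ZT23, where the 3 libraries were almost equal (difference -2.10, SE 0.248, adjusted p = 1.51e-05). CG17777 (-2.40, adjusted p = 0.000892), CG17127 (-2.03, adjusted p = 0.00146), CG11891 (-1.96, adjusted p = 9.98e-05) and CG13670 (-1.64, adjusted p = 0.00194) were genes known by number. Pkc53E, a protein kinase C, stood at 18.9, 13.7 and 12.8 against 44.0, 52.3 and 43.4 (difference -1.58, SE 0.327, adjusted p = 0.00915). Pepck2, a phosphoenolpyruvate carboxykinase, stood at 1.53, 1.71 and 3.73 against 11.2, 24.15 and 16.2, which at ZT11 is 6, 3 and 7 reads. Its difference of -2.45 (SE 0.617, adjusted p = 0.0392) lost its call without each one of the 6 libraries (adjusted p 0.0575 to 0.173), that of Pkc53E without ZT11 course 3 (0.0566), and that of Cpr72Ec, a cuticle protein (-1.55, adjusted p = 0.0201), without ZT11 course 2 or ZT23 course 1 or 3 (0.0576 to 0.191).

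**Figure D3:**
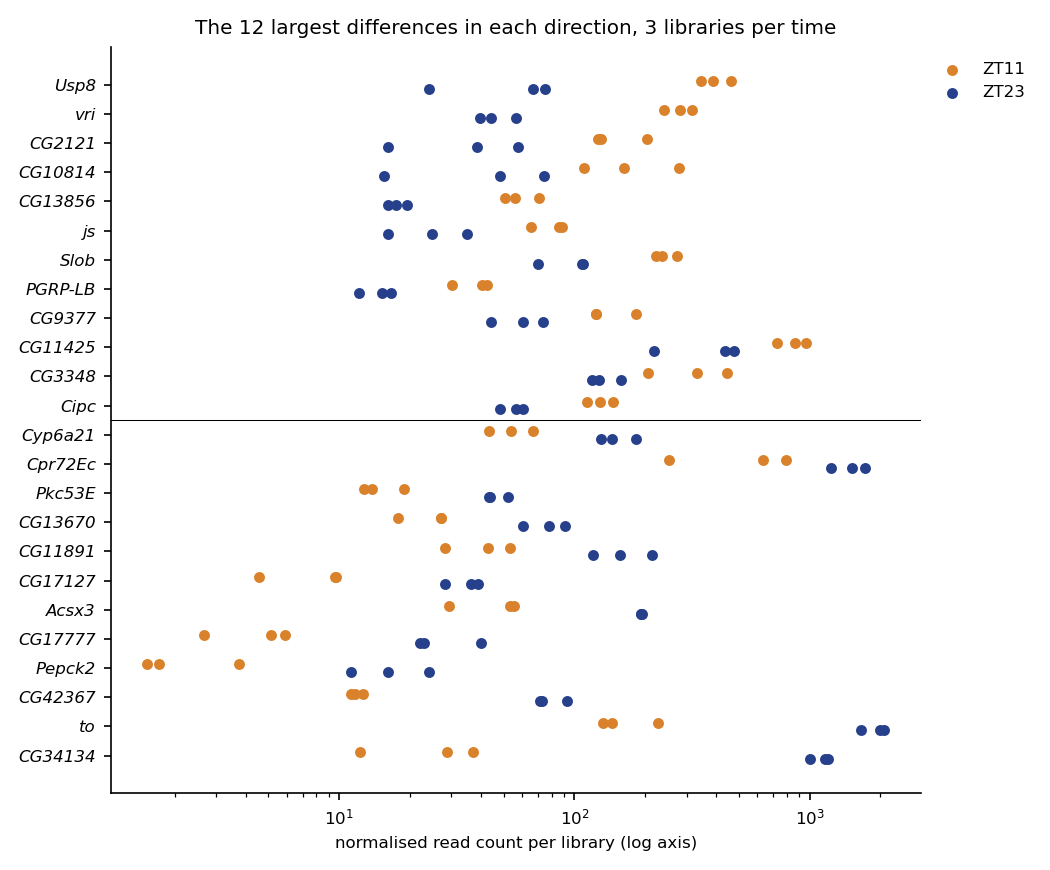
The normalised read count of each library (horizontal log axis) is shown for the 12 largest increases (above the line) and the 12 largest decreases (below it), with the 3 ZT11 libraries in orange and the 3 ZT23 libraries in blue. Groups that do not overlap were required in choosing these 24 genes, and the distance is widest for CG34134, at 12.3 to 37.2 against 1002 to 1202.

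Of 29 measured genes reported as clock-controlled in fly heads, 3 were higher at ZT11 and 10 were higher at ZT23, while 0.833% and 1.06% of all genes passed. The 3 were Usp8, Slob and trpl. The 10 were to, CG11891, Cpr72Ec, Cyp6a21, CG10513, CG10553, Rh5, Ugt35B1, Gclc and Pdh. The list median was -0.19, and 16 members did not pass. The list was written from knowledge of fly clock studies with earlier results of these data in view. The other lists were also chosen with such results known, and several of these genes are counted again in them. Counts in the lists set against all genes are therefore no independent test.

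Of 6 measured opsins, the light-sensing proteins of photoreceptors, 3 were higher at ZT23, against 1.06% of all genes, and 3 did not pass. Those higher were Rh3, Rh4 and Rh5, opsins of the inner photoreceptors R7 and R8. Rh3, an ultraviolet-sensitive opsin of R7 cells, stood at 1960, 1807 and 1783 at ZT11 and at 3920, 4629 and 3376 at ZT23 (difference -1.09, SE 0.124, adjusted p = 9.78e-06). Rh4, the other R7 ultraviolet opsin, stood at 1554, 1544 and 1476 against 3176, 2898 and 3179 (difference -1.02, SE 0.0965, adjusted p = 5.36e-07). Rh5, the blue-sensitive opsin of R8 cells, stood at 304, 322 and 380 against 682, 483 and 666 (difference -0.85, SE 0.139, adjusted p = 0.000852). In none of these 3 opsins did the groups overlap. The remaining opsins did not pass. ninaE, the opsin Rh1 of the outer photoreceptors R1 to R6, stood at 35648, 33303 and 38067 against 31673, 31963 and 30652 (difference 0.18, adjusted p = 0.654). Rh2, of the ocelli, had a difference of 0.19 (adjusted p = 0.591) and Rh6, the green-sensitive opsin of other R8 cells, one of 0.09 (adjusted p = 0.843). Over the 6 times Rh3, Rh4 and Rh5 had their highest mean at ZT23 and their lowest at ZT11.

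Downstream of the opsins, 25 phototransduction genes were measured, of which 3 were higher at ZT11 and 2 at ZT23, against 0.833% and 1.06% of all genes. With array weights the counts were 6 and 3, against 156 and 144 of all 7444 genes. The phototransduction channel subunit gene trpl stood at 2492, 2136 and 3410 at ZT11 and at 1495, 1566 and 1498 at ZT23 (difference 0.79, SE 0.16, adjusted p = 0.00717). Its partner trp did not pass (0.10, adjusted p = 0.805). rtp, the photoreceptor protein retinophilin that binds the myosin NINAC, stood at 2965, 3025 and 2907 against 2002, 2109 and 2097 (difference 0.52, SE 0.093, adjusted p = 0.00209). santa-maria, a scavenger receptor for the uptake of carotenoids, was higher at ZT11 by 0.51 (adjusted p = 0.0235). Pdh, a retinol dehydrogenase of retinal pigment cells, stood at 4237, 3374 and 4383 against 5372, 5881 and 5852 (difference -0.52, SE 0.117, adjusted p = 0.0166), and inaD, the scaffold of the transduction complex, had a difference of -0.49 (adjusted p = 0.0451). The kinase inaC (0.42, adjusted p = 0.0621) and the arrestin Arr1 (0.42, adjusted p = 0.103) had separate groups but did not pass.

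Some of these eye calls rest on single libraries or shared reads. The call was lost for trpl without ZT11 course 3 (adjusted p = 0.0774), for Pdh without ZT11 course 2 or ZT23 course 2 or 3 (0.0592 to 0.16), for santa-maria without any library but ZT23 course 3 (0.0643 to 0.135) and for inaD without any library but ZT11 course 1 (0.0683 to 0.272). The exons of rtp overlap those of Mms19, those of Pdh overlap Tcs3, those of santa-maria overlap CG5973, and those of inaD overlap RpL23, each on the other strand. Mms19 and Tcs3 passed in the same directions as their partners (0.48, adjusted p = 0.00583, and -0.60, adjusted p = 0.0418), so each pair cannot be told apart without strand, while RpL23 did not pass (-0.07, adjusted p = 0.897). Of 10 measured eye pigment genes, 1 passed, against 1.89% of all genes. se, an enzyme of the red drosopterin pigments, stood at 268, 265 and 261 at ZT11 and at 512, 475 and 592 at ZT23 (difference -0.98, SE 0.153, adjusted p = 0.000521). Its exons overlap those of GstO2 on the other strand, which did not pass (0.23, adjusted p = 0.66). The pigment transporter bw (-0.65, adjusted p = 0.0784) did not pass, and its exons overlap those of mi on the other strand, which did (-0.74, adjusted p = 0.0124).

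**Figure D4:**
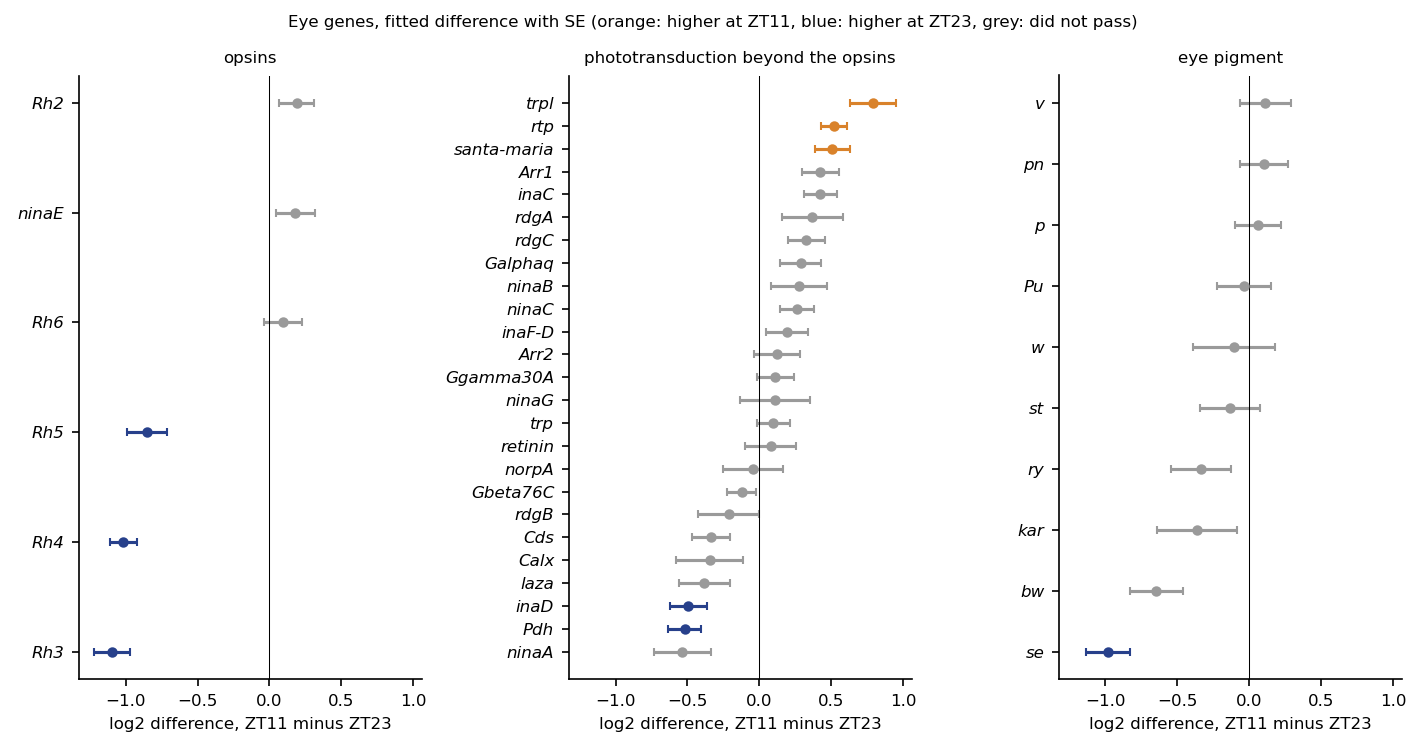
The fitted log2 difference between ZT11 and ZT23 (horizontal axes) is drawn with its SE for 6 opsins, 25 further phototransduction genes and 10 eye pigment genes, in orange where higher at ZT11, blue where higher at ZT23 and grey where the test was not passed. Rh3, Rh4, Rh5 and se lie between -1.09 and -0.85, while the other opsins lie between 0.09 and 0.19.

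In carbohydrate metabolism, 3 of 8 measured genes of the pentose phosphate pathway, which makes NADPH, were higher at ZT11, against 0.833% of all genes, and the list median was 0.41. Zw, glucose-6-phosphate dehydrogenase at the head of the pathway, stood at 232, 232 and 294 at ZT11 and at 136, 177 and 180.2 at ZT23 (difference 0.62, SE 0.143, adjusted p = 0.0204). Pgd, phosphogluconate dehydrogenase, stood at 672, 765 and 640.3 against 358, 507 and 506 (difference 0.61, SE 0.144, adjusted p = 0.0245), and CG8036, a transketolase, had a difference of 0.46 (adjusted p = 0.0385). These calls were lost for Zw without ZT11 course 3 or ZT23 course 1 (adjusted p 0.132 to 0.161), for Pgd without ZT11 course 1 or 2 or ZT23 course 1 (0.0726 to 0.161) and for CG8036 without each of the 6 (0.0592 to 0.161). The exons of Pgd overlap those of bcn92 on the other strand, which passed too (0.61, adjusted p = 0.022), and those of Zw and CG8036 overlap et and p. The list median was 0.01 in conOE and 0.39 in the libraries labelled RNAi. Zw and CG8036 passed in the latter too and Pgd did not, while in conOE none of these 3 passed.

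Of 13 measured glycolytic genes 1 passed, higher at ZT11, against 0.833% of all genes. With array weights 6 did, all higher at ZT11, where 156 of all 7444 genes were called higher at ZT11. Gapdh2, glyceraldehyde-3-phosphate dehydrogenase, stood at 3283, 3035 and 2864 at ZT11 and at 2059, 2431 and 2219 at ZT23 (difference 0.45, SE 0.106, adjusted p = 0.0229), and the call was lost without ZT11 course 1 or 2 or ZT23 course 1 or 3 (0.0661 to 0.137). The fitted difference was above 0 in 11 of the 13 and in 3739 of all 7444 genes, with a median of 0.30, and in 8 of them the ZT11 libraries lay wholly above the ZT23 libraries, against 8.11% of all genes. Pgi (0.39, adjusted p = 0.0858) and Pgk (0.39, adjusted p = 0.0757) came nearest to the threshold among the rest. Trehalose transporter Tret1-1, a sugar-responsive gene, stood at 509, 449 and 438 at ZT11 and at 718, 696 and 671 at ZT23 (difference -0.58, SE 0.126, adjusted p = 0.0132), a call lost without ZT11 course 2 or 3 or ZT23 course 1 (0.0624 to 0.0799). It was the one gene to pass of 7 measured sugar-sensing genes and of 7 of trehalose and glycogen, against 1.89% of all genes. Among 14 genes of gluconeogenesis and glycerol-3-phosphate Pepck2 alone passed, against 1.89% of all genes. Pepck1, with a difference of -0.77 (adjusted p = 0.215), did not pass.

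Lipid genes gave 2 calls in opposite directions among 12 of synthesis and storage, against 1.89% of all genes. FASN1, fatty acid synthase, stood at 1867, 1756 and 1775 at ZT11 and at 1174, 1236 and 1419 at ZT23 (difference 0.50, SE 0.1, adjusted p = 0.00677), and lost its call without ZT23 course 1 (0.0540). mdy, a diacylglycerol acyltransferase that completes triglyceride synthesis, stood at 85.6, 68.6 and 103 against 182, 161 and 185 (difference -1.04, SE 0.164, adjusted p = 0.000543). Of 14 lipolysis and beta-oxidation genes 0 passed by limma and 2 had an unadjusted p under 0.05. Their fitted differences were below 0 in 14 of 14, against 3705 of all 7444 genes (median -0.17, from -0.48 to -0.04), and in 2 of them the groups did not overlap, against 8.8% of all genes. Of 14 genes of insulin and adipokinetic hormone signalling 1 passed, against 1.89% of all genes. Pdk1, a kinase that activates AKT, stood at 215, 269 and 248 at ZT11 and at 144, 113 and 137 at ZT23 (difference 0.89, SE 0.173, adjusted p = 0.0051).

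Of 12 measured head fat body genes 2 passed, to and CG10513, both higher at ZT23, against 1.06% of all genes. Without ZT23 course 2 the counts were 1 higher at ZT11 and 2 at ZT23, against 62 and 52 of all 7444 genes. The list median of -0.19 became -0.01 without that library. With array weights the counts were 2 and 3, against 156 and 144 of all genes. CG10513 stood at 16.8, 28.6 and 16.0 at ZT11 and at 77.1, 24.15 and 94.1 at ZT23, where the value of 24.15, 6 reads of ZT23 course 2, lay inside the ZT11 range. Its difference of -1.46 (adjusted p = 0.0499) was -2.05 without that library (adjusted p = 0.000519) and lost its call without any other (0.0506 to 0.216). The summed fat body markers ran from 11961 to 16529 at ZT11 and from 13930 to 19682 at ZT23, and were highest in ZT23 course 2. The yolk protein genes, made by female fat body, summed to 268920, 218190 and 166370 at ZT11 and to 167820, 256320 and 109340 at ZT23, so ZT23 course 2 was also the high one of its time. The female-biased fat body gene fit stood at 171, 1067 and 131 at ZT23 against 753, 679 and 743 at ZT11 (difference 1.33, adjusted p = 0.386). The part of these differences among libraries in the calls was not tested.

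Immune genes mostly had fitted differences above 0 without passing. Of 21 antimicrobial peptides and recognition proteins, 20 had fitted differences above 0 (median 0.54), against 3739 of 7444 genes. In 12 the ZT11 libraries lay wholly above the ZT23 libraries, against 8.11% of all genes, and 3 passed, against 0.833%. With array weights 6 passed, all higher at ZT11, against 156 of all 7444 genes. Beside PGRP-LB, the short Bomanin BomS3 stood at 4275, 3840 and 3664 at ZT11 and at 2591, 2045 and 2706 at ZT23 (difference 0.69, SE 0.154, adjusted p = 0.0166), and BomS2 at 5329, 5456 and 6190 against 3687, 3240 and 4122 (difference 0.62, SE 0.149, adjusted p = 0.0275). The inducible peptides AttA (1.73, adjusted p = 0.265), DptB (1.51, adjusted p = 0.174), AttC (1.46, adjusted p = 0.0668) and Mtk (1.38, adjusted p = 0.213) had larger differences but wider spreads. The list median was 0.03 in conOE and -0.26 in the libraries labelled RNAi. The call of BomS3 was lost without ZT11 course 1 or 2 or ZT23 course 2 (0.0537 to 0.113), and that of BomS2 without any library but ZT23 course 3 (0.0611 to 0.153).

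Detoxification genes gave 6 calls, 3 of 54 cytochrome P450 genes, 1 of 14 UDP-glycosyltransferases and 2 of 28 glutathione genes, against 1.89% of all genes. Of the P450 genes, Cyp6a21 stood at 53.8, 43.4 and 66.6 at ZT11 and at 129, 145 and 182 at ZT23 (difference -1.47, SE 0.206, adjusted p = 0.000126). Cyp6a20, which has been linked to male aggression, stood at 165, 183 and 160.4 against 289, 298 and 294 (difference -0.79, SE 0.134, adjusted p = 0.00125), and Cyp6v1 was higher at ZT11 (0.96, adjusted p = 0.033). Of the UDP-glycosyltransferases Ugt35B1 passed, at 241, 229 and 242 against 411, 435 and 387 (difference -0.79, SE 0.14, adjusted p = 0.00195). Of the glutathione genes, the transferase GstD9 was higher at ZT11 (0.72, adjusted p = 0.0418) and Gclc, the catalytic subunit of glutathione synthesis, was higher at ZT23 (-0.71, adjusted p = 0.0465). The calls of GstD9 and Gclc were each lost in 5 of the 6 fits without 1 library (0.0779 to 0.247 and 0.0711 to 0.297; the exceptions were ZT23 course 3 and ZT11 course 2), and that of Cyp6v1 without any ZT11 course or ZT23 course 2 (0.0624 to 0.189). Of 16 cuticle proteins 3 passed, against 1.89% of all genes. Cpr67B (-0.95, adjusted p = 0.000231) and Cpr72Ec were higher at ZT23 and Cpr11B (0.94, adjusted p = 0.00112) at ZT11.

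In 20 of the 39 gene lists 0 members passed by limma, and of their 485 genes 39 had an unadjusted p under 0.05, against 11.5% of all genes. Beside lipolysis they covered 12 clock kinases and related genes, 10 circadian neuropeptides and receptors, 9 light- and activity-regulated transcription factors, 13 genes of biogenic amines, 19 pan-neuronal, 13 glial and 12 muscle genes, 16 heat shock genes and chaperones, 3 Turandot genes, 19 odorant binding proteins, 6 amylases and glucosidases and 15 genes of amino acid catabolism. They also covered 85 cytoplasmic and 71 mitochondrial ribosomal proteins, 70 nuclear and 13 mitochondrial genes of the respiratory chain, 33 proteasome subunits, 13 autophagy genes and 41 translation factors. The ribosomal, respiratory, proteasome and translation medians lay between -0.11 and 0.12. Differences were below 0 in 51 of 71 mitochondrial and 56 of 85 cytoplasmic ribosomal genes, against 3705 of all 7444 genes. They were below 0 in 46 of 70 nuclear respiratory genes and above 0 in 24 of 33 proteasome genes. Of the 71, 14 lay wholly above at ZT23 and 2 at ZT11, against 8.8% and 8.11% of all genes. Pdfr, the receptor of the clock neuropeptide PDF, had a difference of 1.09 with overlapping groups (adjusted p = 0.206), and the casein kinase gene dco, known as doubletime, one of 0.54 (adjusted p = 0.17). The summed glial markers lay between 4681 and 5378 at ZT11 and between 3835 and 4373 at ZT23, ranges that did not overlap. Of single genes, 8.11% lay wholly above at ZT11. The sum weighs abundant genes most, and of its 7 markers 0 passed (median 0.15). Among the 13 listed glial genes 3 lay wholly above at ZT11 and 2 at ZT23. The summed neuronal markers (1340.3 to 1468 and 1352 to 1590) and muscle markers (1623 to 2507 and 2024 to 2264) overlapped. Whether glial content differed, and its part in the results, was not tested.

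The remaining times of the same genotype placed the called genes in the day. Of the 62 genes higher at ZT11, the highest of the 6 time means was at ZT11 in 22, at ZT15 in 19, at ZT7 in 13 and at ZT3 in 8. Their lowest mean was at ZT23 in 44, at ZT19 in 13 and at ZT3 in 5. Of the 79 genes higher at ZT23, the highest mean was at ZT23 in 66, at ZT3 in 8 and at ZT19 in 5. The lowest was at ZT11 in 46, at ZT15 in 20, at ZT7 in 10, at ZT19 in 2 and at ZT3 in 1. Peaks and troughs at ZT11 and ZT23 follow in part from the choice of genes, which used these times. CG34134 ran from a mean of 1124 at ZT23 through 417 at ZT3 and 63.5 at ZT7 to 26.0 at ZT11, then stood at 63.9 at ZT15 and 489 at ZT19, and to ran through 1132, 277, 167, 334, 1064 and 1907 from ZT3 to ZT23. The neighbouring times were not used in choosing the genes, though the 18 libraries share 1 estimate of spread. The mean at ZT15 lay above that at ZT19 in 58 of the 62 and below it in 75 of the 79, and the mean at ZT7 lay above that at ZT3 in 48 of the 62 and below it in 72 of the 79. Shares of all genes with these orders were not counted.

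The conOE libraries, separate from conRNAi, gave a second reading of the same interval with 2 courses at each time. Of 7648 genes 21 passed there (0.275%), 9 higher at ZT11 (0.118%) and 12 at ZT23 (0.157%), with 555 (7.26%) at an unadjusted p under 0.05. Listed in both tables were 8 of the 9 and 12 of the 12, and each of these 20 genes had also passed in conRNAi in the same direction, which is 12.9% of the conRNAi calls higher at ZT11 and 15.6% of those higher at ZT23 that both tables list. The 8 were Usp8, vri, tim, Slob, Cipc, Vinc, trpl and CG46385. The 12 were CG34134, to, Acsx3, CG17127, CG11891, CG10513, CG31300, CG5618, Culd, Ank2, Rh4 and b. per, the partner of tim, stood at 82.7 and 70.8 at ZT11 and at 12.2 and 16.9 at ZT23 in conOE (difference 2.34, SE 0.338, adjusted p = 0.00929).

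Among all conRNAi calls, 60 of 62 and 76 of 77 measured in conOE had the same sign there, with medians of 0.53 and -0.71. The share of all genes with the same sign was not counted. Groups that did not overlap in the same direction were found for 37 of the 62 and 59 of the 77, against 16.8% and 17.1% of all genes. CG34134 differed by -4.99 in conOE (adjusted p = 1.79e-06), Usp8 by 2.91 (adjusted p = 7.17e-06) and vri by 2.73 (adjusted p = 0.000168). cry, called in conRNAi, had 0.14 in conOE (adjusted p = 0.918), and Clk, not called in either, had -1.39 (adjusted p = 0.214). The count of 21 fell in the 4 conOE libraries alone, as given further below, and moved widely in fits without 1 conOE library. Each such fit leaves 1 library at 1 of the times, so these counts are not given. The shallowest conOE library was ZT23 course 2, with 763012 reads over all listed transcripts against 3610098 in ZT23 course 1. One read in conOE ZT23 course 2 is worth a value of 4.22.

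**Figure D5:**
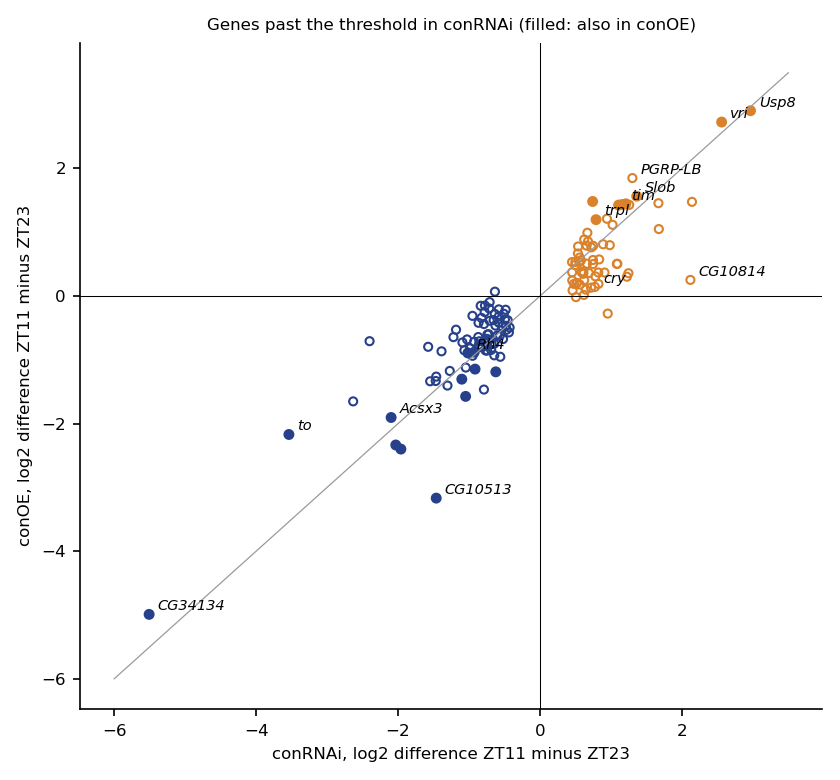
The log2 difference between ZT11 and ZT23 in conOE (vertical axis) is plotted against that in conRNAi (horizontal axis) for the 139 genes that passed in conRNAi and are listed in both tables, with filled points for the 20 that passed in both and a grey line of equality. The points lie in the same-sign quadrants but for 3 genes, and CG34134 is the farthest, at -5.51 and -4.99.

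The libraries labelled RNAi were normalised in the same table as conRNAi and have 3 courses. There 74 genes passed (0.994%), 41 higher at ZT11 (0.551%) and 33 at ZT23 (0.443%), with 957 (12.9%) at an unadjusted p under 0.05. Genes called in both groups numbered 15 higher at ZT11, or 24.2% of the conRNAi calls and 36.6% of the other, and 21 higher at ZT23, or 26.6% and 63.6%. In the labelled RNAi libraries 59 of the 62 and 73 of the 79 had the same sign, a share not counted over all genes. Their groups lay apart in the same direction for 30 and 44 of them, against 5.87% and 6.93% of all genes. The difference between the genotypes in this interval, tested as an interaction, passed for 0 genes by limma, with 557 at an unadjusted p under 0.05 (7.48%). Without RNAi ZT23 course 1 it passed for 60 genes. That library held 3716841 reads over the genes, while RNAi ZT23 courses 2 and 3, which then stood alone for their time, held 349019 and 562369. The 5 genes of lowest p were Tret1-1, Cpr62Bb, spn-F, dob and CG7990, each with adjusted p = 0.497. Tret1-1 had a difference of -0.58 in conRNAi and 0.15 in the labelled RNAi libraries, and Cpr62Bb one of 0.12 and 1.82.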

How the data were processed

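Fly heads were collected by genotype and time, RNA was extracted with TRI reagent and 3′ RNA-seq libraries were made by poly(A) selection after fragmentation, per the labels' protocols. Bowtie, TopHat and the build dm3 are named in the submitters' processing notes, with their versions, the way of counting, its use of strand and any filters not given in the sources used here. The deposited signal is, from the values, a read count divided by a factor of its library, since each library's values were whole multiples of 1 step within 0.05 reads in 59 of 60 libraries. The authors' means and rhythm statistics were not used. Depths are sums of these steps over genes, or for conOE over transcripts, and intervals cover counting error only.

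The deposited table held 8443 transcripts of 7444 genes. For each gene the transcript of highest mean was kept. Symbols came from RefSeq (Release 6 plus ISO1 MT, another build) by locus tag (7186 genes) or synonym (207), and 51 kept their listed name. Overlaps of exons were read from Ensembl's BDGP6 annotation. The 3 conRNAi libraries of each time were fitted together (18 libraries, time as a factor) on log2(value + 1) with the trended limma test (limma 3.58.1, R 4.3.3), and p-values were adjusted over 7444 genes by Benjamini-Hochberg. Log2 differences are ZT11 minus ZT23 on that scale, and for low genes they understate the change. conOE was fitted in the same way in its own table, which was normalised separately, and the interaction over the 36 libraries of the RNAi table. On simulated data with 200 of 7444 genes changed, 13.3% of log2 changes of 0.5, 69.3% of 1 and 98% of 2 were recovered, with 6 false calls among 117. The simulated noise was normal, with 1 spread per gene for all 18 libraries and no shallower library or effect of course. These rates therefore need not hold for the real libraries. Within each time, pairs of libraries differed beyond sampling noise, with a chi-square of 7.10 to 17.3 for each degree of freedom, and were counted separately. Named genes are the 12 largest changes each way with separate groups, the measured core clock genes, up to 4 passing genes of lowest p per list and 5 for the interaction; further genes were named with their values in view. The genes, lists and tests were chosen with earlier results of these data known. The alternatives were other pseudocounts (0.1 and 10), a mean of at least 10, other scalings, other sets of libraries, a replicate block, summed transcripts, libraries left out and, added later, array weights.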

Additional observations from a re-analysis of the deposited data

How the results depend on the processing

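The count of 141 genes (62 higher at ZT11, 79 at ZT23) was 131 to 143 with pseudocounts of 0.1 and 10, a mean of at least 10, other scalings and summed transcripts, and no scaling moved the median of all genes by over 0.02. It was 78 (33 and 45) in the 6 libraries alone, where fewer libraries estimate the spread, 91 (39 and 52) over the 36 libraries of both genotypes and 300 (156 and 144) with array weights, an alternative chosen after seeing the data, which kept all 141. The cause of the last was not tested. Fits that left out 1 library gave 79 to 114 (35 to 62 and 41 to 52), and for conOE 4 to 235 (2 to 185 and 2 to 50). The 21 conOE calls (9 and 12) were 3 (2 and 1) in the 4 conOE libraries alone. The interaction passed for 0 to 60 genes, the 60 without RNAi ZT23 course 1 alone.

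The labels do not say whether course numbers pair the samples, and the main fit held no term for course. Same-numbered ZT11 and ZT23 libraries deviated together with r of 0.0787, 0.133 and 0.125, and each correlated best with its own number, a hint from the data. Over all 6 times, 45 same-numbered pairs had a median r of 0.110 (-0.0443 to 0.298) against -0.0612 (-0.194 to 0.0930) for 90 other pairs. A replicate block gave 231 calls (114 and 117), with all 141 kept, or 174 in the 6 libraries alone, and 23 in conOE.

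Of 60 named genes 52 passed, 28 of them in each of 17 alternatives and 29 in each of 6 fits that left out a library. In those 6 fits the sign turned for 3 genes that had not passed, Clk (-0.64 to 0.10, with 0.10 and 0.04 without ZT23 course 1 and 3), cyc (-0.44 to 0.10, without ZT11 course 2) and Cpr62Bb (-0.10, without ZT23 course 3, to 0.26). The planned edgeR count test was not run, because the check of units did not accept recovered whole reads. Depth limits ZT23 course 2 most, whose median gene had 19 reads against 125 to 284 in the other 5.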

Other observations

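Passing genes outside the lists are given here as single genes picked after their values were seen, and nothing is read from them about the families they belong to. The carbonic anhydrase CAH9, of a class of enzymes of pH and CO2 balance, stood at 126, 164 and 129 at ZT11 and at 68.4, 76.5 and 52.0 at ZT23 (difference 1.08, adjusted p = 0.00304) and CAH7 was higher at ZT11 too (0.58, adjusted p = 0.0121). CAH2 went the other way, at 346, 288 and 273 against 517, 535 and 465 (difference -0.75, adjusted p = 0.000523). Of genes named for juvenile hormone binding proteins, Jhbp11 (1.09, adjusted p = 0.00112) and Jhbp1 (0.66, adjusted p = 0.0248) were higher at ZT11 and Jhbp13 (-0.69, adjusted p = 0.00996) at ZT23. The neprilysin-like peptidase gene Nepl18 stood at 98.3, 68.0 and 116 at ZT11 and at 261, 241.5 and 262 at ZT23 (difference -1.46, adjusted p = 2.89e-05), and Nepl19 (-1.22, adjusted p = 0.00179) and the neprilysin Nep6 (-0.71, adjusted p = 0.0448) were higher at ZT23 as well. The calls of CAH7 (without ZT11 course 3 or ZT23 course 1, adjusted p up to 0.0994), Jhbp1 (without any ZT11 course or ZT23 course 1, up to 0.153), Jhbp13 (without ZT11 course 2, 0.0859) and Nep6 (without any library but ZT11 course 3, up to 0.215) were lost.

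Other passing genes of known role included the aquaporin Drip at 217, 219 and 198 against 101, 105 and 113 (difference 0.98, adjusted p = 9.83e-05) and Vinc, the adhesion protein vinculin, at 159.7, 149 and 163 against 96.6, 52.3 and 74.5 (difference 1.11, adjusted p = 0.000523). Ank2, a neuronal ankyrin of the membrane skeleton, stood at 820, 827 and 666 at ZT11 and at 1398, 1582 and 1403 at ZT23 (difference -0.93, adjusted p = 3.8e-05). Among abundant transcripts CG17108 stood at 21172, 13657 and 20334 against 45407, 37083 and 52476 (difference -1.30, adjusted p = 0.000872). In these 4 genes the groups did not overlap and the call held without each of the 6 libraries.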
